A study of Mus musculus with 12 samples.

Results

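Macrophages that had met bacterial lipopolysaccharide (LPS) and had then been rested are described here in the state they held before any second dose. The comparison set the 3 arrays of LPS pretreated cells against the 3 arrays of untreated cells, 6 of the 12 arrays of the series. Arrays were chosen by their labels alone and paired by the replicate letter, A, B or C. All cells were macrophages grown from bone marrow of C57Bl/6 mice with macrophage colony-stimulating factor (M-CSF). Pretreated cells received 100 ng/ml LPS for 18 h, then new medium and 2 h of rest, and no LPS after that. Untreated cells went through the same steps with no LPS at any of them. A group called LPS once received 100 ng/ml LPS only after the rest, a restimulated group received it both times, and each of these had 3 arrays that helped to estimate the spread. How long the exposure after the rest lasted, and whether each letter, which the labels call a biological replicate, came from another mouse, was not stated in the sources used here, so p-values measure the spread between these cultures.

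LPS, a glycolipid from the surface of Gram-negative bacteria, is sensed by Toll-like receptor 4 (Tlr4) together with Ly96 and Cd14, and the adaptor Myd88 carries the signal to NF-kappaB. A second route from the same receptor leads to type I interferon, which acts back on the cells and raises genes of antiviral defence. After hours of exposure, macrophages enter a state called tolerance, in which many inflammatory genes respond less to another dose. The rested cells are the baseline on which that next dose acts.

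Mean intensities lay between 310 and 317 on 11 arrays and at 246.7 on the restimulated C array, which was not among the compared arrays but entered the shared estimate of the spread. All 12 macrophage markers measured were present, at 750.6 intensity units or more on the 6 compared arrays, and 0 of them were called changed. Their summed intensity was 89909 to 91946 in untreated cells and 86438 to 97805 in pretreated cells. Of the markers of other cell types, 5 of 6 of T and NK cells and 3 of 4 of B cells stayed under 64 units on every array. So did 6 of 6 of mast cells, basophils and eosinophils and 4 of 6 of dendritic cells. The same held for 3 of 5 of endothelium and 3 of 5 of red cells and platelets. The exceptions were Cd4, Cd79b, Flt3, Zbtb46, Kdr, Vwf, Itga2b and Gp9. Markers of stroma were far lower on the C arrays of both groups, with a sum over 6 genes of 4469, 8020 and 213.9 on untreated A, B and C and of 5157, 4861 and 267.0 on pretreated A, B and C. In a list of 12 stromal genes 0 were called, and the median log2 change was -0.31. By limma at an unadjusted p under 0.05, 4 of the 12 were lower and 2 higher, against 7.64% and 6.72% of all genes tested. Neutrophil markers summed to 469.3, 1786 and 643.0 in untreated cells and to 471.9, 3420 and 1027 in pretreated cells over 9 genes, 5 of which stayed under 64 units on every array. The part of stromal and neutrophil transcripts in the results was not tested. In such bulk samples, fewer cells of a type and less RNA per cell cannot be told apart.

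Pretreatment left a limited set of genes displaced. A call required at least a 2-fold change on the scale log2(intensity + 16) and, in limma, an adjusted p (Benjamini-Hochberg, over all genes) under 0.05. Of 18193 genes tested, 100 were called higher (0.55%) and 97 lower (0.533%). At an unadjusted p under 0.05, 1223 genes were higher (6.72%) and 1390 lower (7.64%). These shares are the background for the counts of list members given below. The median change over all genes was a log2 value of 0.02, and 93.8% of genes lay within 1.5-fold of the untreated level. That share takes in dim genes, whose changes the scale understates. Of the 18193 genes, 8565 had a mean of at least 100 intensity units in either group. Increases reached farther than decreases: 27 genes rose over 8-fold and 4 fell over 8-fold. The groups of 3 arrays did not overlap for 98 of the genes called higher and 87 of those called lower, against 15.7% and 11.5% of all genes tested. The largest increases and decreases named below were picked from these genes, so their lack of overlap is no further support.

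**Figure D1:**
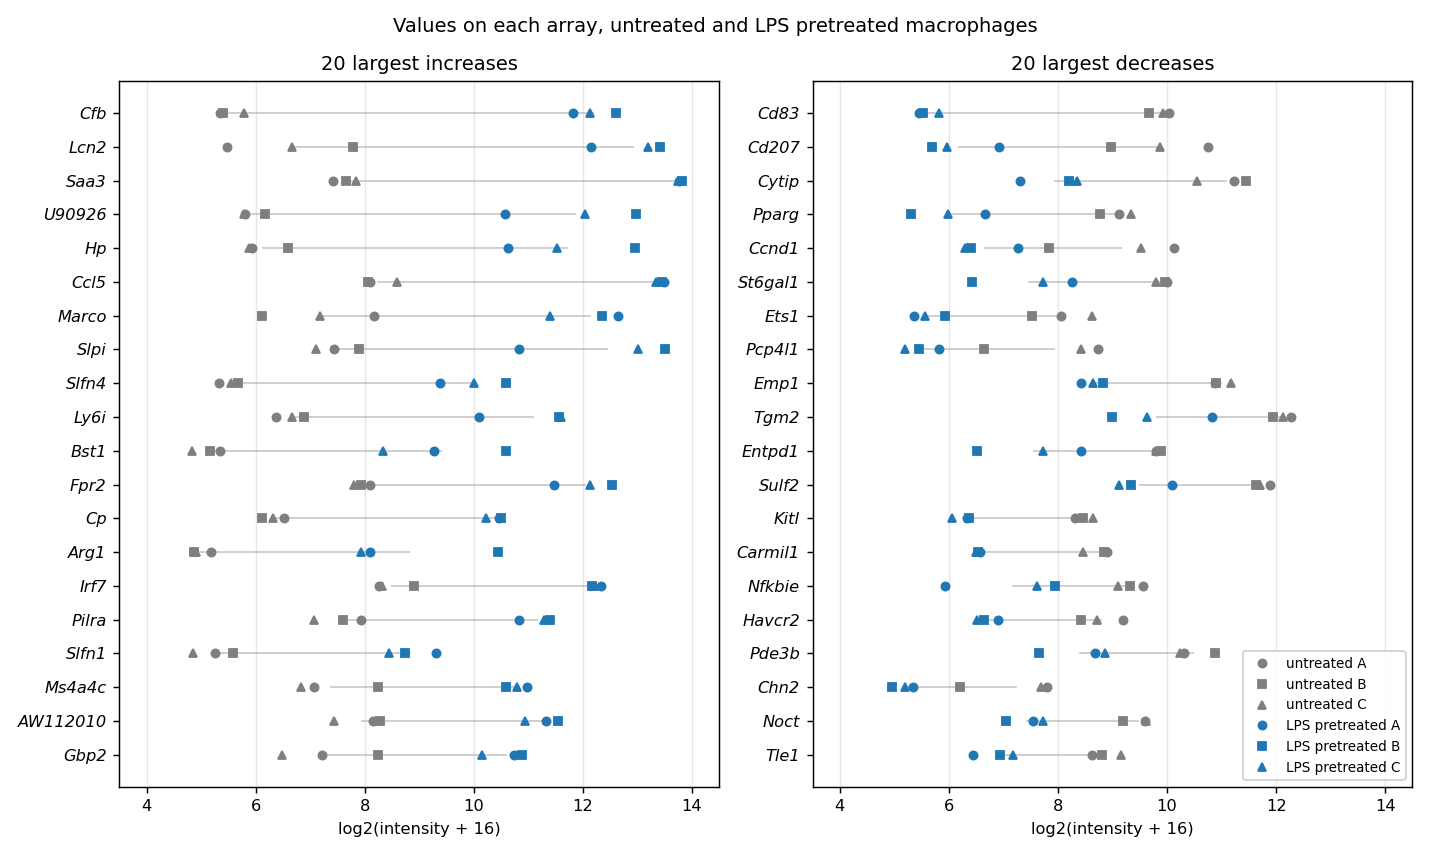
Values of the 20 largest increases (left) and 20 largest decreases (right) among called genes whose groups did not overlap, as log2(intensity + 16) on each array of the 2 groups. Grey marks are untreated arrays, blue marks LPS pretreated arrays, shapes give the replicate letter, and a line joins the group means. The blue marks of Cfb lie between 11.81 and 12.61 and its grey marks between 5.34 and 5.78.

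The counts moved with the fit and with single arrays. Without the replicate letter as a block they were 53 higher and 56 lower. With 1 array of the compared groups left out at a time, the number higher lay between 34, without pretreated C, and 84, without pretreated A. The number lower lay between 26, without untreated C, and 61, without untreated B or pretreated A. Numbers higher were 47 without untreated A or pretreated B, 54 without untreated B and 41 without untreated C. Numbers lower were 39 without untreated A, 53 without pretreated B and 33 without pretreated C. Without restimulated C they rose to 118 and 156. Of the 100 genes called higher, 33 kept their call whichever of the 12 arrays was left out, and of the 97 called lower, 22. Of 52 genes called higher that had more than 1 probe set, 21 had at least 1 other called the same way. Of 57 such genes called lower, 21 did. Another probe set was called in the other direction for 0 genes called higher and 0 called lower. A gene not described as losing its call kept it with each of the 12 arrays left out or was not called in the first place. Where a call is given as lost without any one of several arrays, leaving out each of them alone ended it.

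Secreted proteins of the acute phase and of antimicrobial defence stood at the top of the changes. Cfb, the factor B protease of the alternative complement pathway, had intensities of 24.59, 26.44 and 39.12 in untreated A, B and C and of 3577, 6214 and 4469 in pretreated A, B and C. That was a rise of 102-fold, or 6.67 ± 0.39 on the log2 scale (SE, 3 arrays a group, adjusted p = 0.000256). Every pretreated array lay far above every untreated one. Untreated Cfb was near the median intensity of the arrays, 29.72 to 31.65, so the size depends on the pseudocount, with a log2 change of 7.25 at a pseudocount of 1 and 5.65 at 64. Saa3, an acute phase serum amyloid A protein made by macrophages, stood at 153.9, 185.5 and 213.8 in untreated cells and at 13874, 14367 and 13756 in pretreated cells. It had the smallest adjusted p of all genes, 5.01e-07, with a log2 change of 6.14 ± 0.12. Lcn2, which binds bacterial siderophores and so withholds iron, varied more at the start, with 28.65, 203.4 and 85.11 in untreated cells, and reached 4505, 10888 and 9319.

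Hp, the haemoglobin-binding protein haptoglobin, rose from 45.08, 80.27 and 42.98 to 1573, 7933 and 2920, a log2 change of 5.57 ± 0.49 (adjusted p = 0.00211). Slpi, a secreted inhibitor of leukocyte proteases, rose from 156.6, 223.2 and 122.5 to 1811, 11666 and 8197, a log2 change of 4.97 ± 0.49 (adjusted p = 0.00364). Pretreated A was the lowest of its group for both genes, and the groups did not overlap. Cp, the copper-carrying ferroxidase ceruloplasmin, had 8 probe sets, 4 of them called higher, and the brightest gave 75.56, 53.40 and 63.25 against 1389, 1430.5 and 1178.5. C1ra, a protease that starts the classical complement pathway, rose by 2.53 ± 0.26 (adjusted p = 0.00463). U90926, a transcript without a protein name in these tables, rose by 5.94 ± 0.39 (adjusted p = 0.000481).

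The medians of the lists that hold these genes shifted little, but not all members were bright enough for a change to be read. Of 24 measured acute phase and antimicrobial secreted proteins, 5 rose and 0 fell, the fifth being Wfdc21 at 3.07, picked after its values were seen, which lost its call without untreated A, untreated B, pretreated B or pretreated C (adjusted p up to 0.0671). At an unadjusted p under 0.05, 10 were higher and 3 lower, against 6.72% and 7.64% of all genes tested. The median of the list was 0.10, against 0.02 over all genes, and 12 of the 24 had a mean of at least 100 intensity units in either group. Of 19 complement genes 2 rose, Cfb and C1ra, and the median was -0.04, with 11 of the 19 at a mean of 100 units or more. Of 23 genes of iron, copper and zinc handling 2 rose, Cp and the copper importer Slc31a1 at 1.03 ± 0.12, which lost its call without untreated C, pretreated B or pretreated C (adjusted p up to 0.0517, change down to 0.96). Ngp and S100a8, which neutrophils also make, had changes of -1.55 ± 0.42 (adjusted p = 0.129) and 2.02 ± 0.48 (adjusted p = 0.0894) and were not called.

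A pair of surface receptors, Fpr2 and Marco, were among the larger increases. Fpr2, a receptor for formyl peptides and for Saa family proteins, gave 258.8, 227.5 and 208.5 in untreated cells and 2828, 5903 and 4487 in pretreated cells, a log2 change of 4.10 ± 0.22 (adjusted p = 0.000177). Marco, a class A scavenger receptor for bacteria and particles, rose from 270.9, 53.22 and 129.8 to 6371, 5176 and 2694, with both of its probe sets called. Neither gene's groups overlapped. Their lists held few other calls: 1 of 16 attractant receptors rose, and of 26 scavenger receptors and lectins 1 rose and 1 fell. The one that fell was Clec4b1, a C-type lectin, at -1.49 ± 0.20, whose groups overlapped and which lost its call without untreated A or C or any one pretreated array (adjusted p up to 0.0722).

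Paired receptors, families in which near-identical members signal in opposite directions, had several members higher. Pilra, an inhibitory member, rose from 229.2, 177.0 and 119.0 to 1792, 2671 and 2474, a log2 change of 3.63 ± 0.27 (adjusted p = 0.000741). Its activating relative Pilrb1 rose by 2.97 ± 0.24 (adjusted p = 0.00121). Fcgr2b, the inhibitory receptor for IgG, rose by 2.08 ± 0.17 (adjusted p = 0.00145), although a dimmer probe set gave -0.01. That one lacked the endings _s_at, _x_at and _a_at, which mark the probe sets called below ones that may be shared. Whether such probe sets bind other genes was not tested. Sirpb1a, an activating signal-regulatory protein, rose from 730.0, 932.1 and 617.0 to 2765, 2325 and 2897, a log2 change of 1.80 ± 0.19 (adjusted p = 0.00516). Of 22 measured Fc and paired receptors, 5 rose and 1 fell, the median was 0.07, and near-identical family members may share signal on these probes. The fifth that rose was Trem3, an activating relative of Trem2, at 1.71 ± 0.33, named after its values were seen, which lost its call without any array but restimulated C (adjusted p up to 0.183). The one that fell, Trem2, a receptor for lipids and apoptotic cells, gave -1.25 ± 0.18, but 0.22 on a dimmer probe set without those endings. It lost its call without untreated A or C or any one pretreated array (adjusted p up to 0.0781).

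Genes of antiviral defence were numerous among the increases. Irf7, the transcription factor that amplifies type I interferon production, rose from 290.8, 463.3 and 301.4 to 5135, 4611 and 4676, a log2 change of 3.74 ± 0.36 (adjusted p = 0.00349). Of 41 measured interferon-induced antiviral effectors, 17 rose and 0 fell. At an unadjusted p under 0.05, 33 were higher and 0 lower, and all 41 had a change above 0, as did 56.6% of all genes tested. The median of the list was 1.39, and changes ran from 0.29 for Apobec3 to 4.48 for Slfn4. Members of this and the other lists were chosen with earlier results of these data known, so such counts describe and do not test.

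Slfn4 and Slfn1, of the Schlafen family of growth and antiviral regulators, rose by 4.48 ± 0.61 (adjusted p = 0.0131) and 3.59 ± 0.57 (adjusted p = 0.0242). Ifitm6 and Ifitm1, members of the family of membrane proteins that block viral entry, rose by 3.24 ± 0.46 (adjusted p = 0.0158) and 3.19 ± 0.53 (adjusted p = 0.0287). Ifitm1 was uneven among the pretreated arrays, at 1019, 6153 and 1666, against 283.3, 407.3 and 94.72 in untreated cells. Calls in this list rested on the arrays more than those above: 11 of its members were called without untreated B, 6 without pretreated A, 3 without untreated A, 2 without pretreated B, 1 without untreated C and 1 without pretreated C. Slfn4 and Ifitm6 lost their calls without any one untreated array, pretreated B or pretreated C (adjusted p up to 0.0768 and 0.0889). Slfn1 lost its call without any one array of either group (up to 0.11) and Ifitm1 without any one untreated array, pretreated B, pretreated C or LPS once B (up to 0.133). With any array left out, 0 members were called lower. Without the replicate block, 6 members were called, with a pseudocount of 64 there were 11, and with the 6 compared arrays alone 14. The smallest pseudocount tried, 1, gave 23, as did leaving out restimulated C. Quantile normalization gave 26 and array weights 27.

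Guanylate-binding proteins and immunity-related GTPases, which attack vacuoles holding microbes, moved the same way. Of 9 measured members 4 rose and 0 fell, all 9 were higher at an unadjusted p under 0.05, and the median was 1.59. Gbp2 rose from 133.5, 285.3 and 73.19 to 1687, 1871 and 1116, a log2 change of 3.27 ± 0.34 (adjusted p = 0.00428). Gbp6, Gbp7 and Gbp3 changed by 3.01 ± 0.42, 2.02 ± 0.35 and 1.59 ± 0.30. Each of these 3 lost its call with some single arrays left out, which for Gbp6 were any untreated array, pretreated B or pretreated C (adjusted p up to 0.079). For Gbp7 they were untreated A or C, any pretreated or LPS once array or restimulated B (up to 0.129), and for Gbp3 any array of the compared groups, LPS once A or C or restimulated A or B (up to 0.157). The list then held 1 call without untreated A, untreated C, pretreated B or pretreated C, and 2 without untreated B, pretreated A, LPS once A, LPS once C or restimulated B.

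Of 19 measured genes of MHC class I presentation and the immunoproteasome, 2 rose and 0 fell, 17 were higher at an unadjusted p under 0.05, all 19 had a change above 0, and the median was 0.74. The called members were the peptide transporter subunit Tap1 at 1.62 ± 0.30 (adjusted p = 0.0423) and the non-classical molecule H2-T24 at 2.05 ± 0.37 (adjusted p = 0.039). Leaving out any array of the compared groups, or restimulated A, ended both calls (adjusted p up to 0.168 and 0.141). Tap1 was also lost without LPS once C or restimulated B, and H2-T24 without LPS once A. Of 15 class II genes 0 were called by limma. At an unadjusted p under 0.05, 3 were higher and 2 lower, against 6.72% and 7.64% of all genes tested. H2-Eb1, a class II beta chain, gave 2507, 1680 and 3506 in untreated cells and 1121, 221.6 and 1496 in pretreated cells, a change of -1.74 (95% interval -2.69 to -0.79, adjusted p = 0.0894). Other parts of interferon signalling showed few calls, since Irf7 was the 1 called member of 23 regulatory factors, STATs and Janus kinases, whose median was 0.06.

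**Figure D2:**
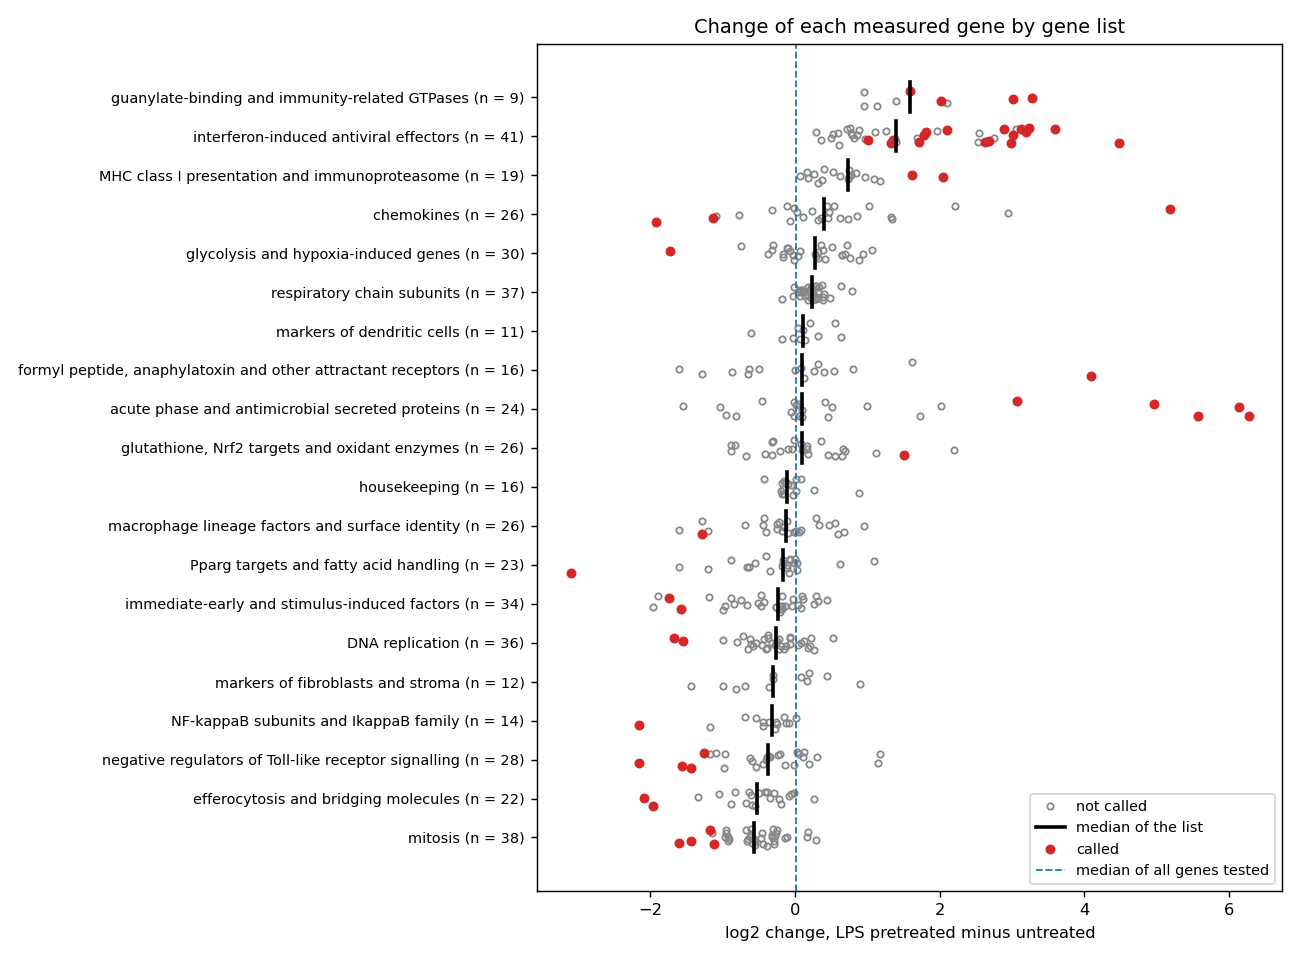
Log2 change, LPS pretreated minus untreated, of every measured member of 20 gene lists, those with the 10 highest and 10 lowest medians among lists of at least 9 measured genes. Red points are called genes, open points are not called, black bars are list medians, and the dashed line is the median of all genes tested. The bars run from -0.56 for mitosis to 1.59 for guanylate-binding and immunity-related GTPases.

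Promoter sequences of RefSeq, build GRCm38.p6, covered 250 bases before to 50 after the start for 14452 genes tested, among them 74 of the genes called higher and 68 of those called lower. The letters of an interferon-stimulated response element, GAAANNGAA, stood on either strand in 29.7% of the genes called higher (22 of 74), in 13.2% of those called lower (9 of 68) and in 8.7% of all genes. Among the interferon-induced antiviral effectors 15 of 29 held them (51.7%). The letters of a C/EBP site, TTGCNNAA, stood in 18.9% of genes called higher, 14.7% of those called lower and 10.8% of all, and in 11 of 21 acute phase and antimicrobial genes (52.4%). For a kappaB site, GGNNNTTCC, the shares were 27.0%, 23.5% and 23.3%, and for an AP-1 site, TGANTCA, 16.2%, 17.6% and 7.54%. A match is a description of letters and not a site of binding, and the shares were not tested.

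The following stretches show the match nearest the far end of the window, in capitals, with the bases beside it upstream of the start, for the called higher genes with the largest changes among those with a window that held one. Cfb, Hp, Ccl5 and Ly6i had no window and were not searched. They are written 5′ to 3′ on the strand of the gene, and a match in capitals can be the reverse complement of the motif as spelled above. The interferon-stimulated response element letters are shown for Saa3 (chr7:46715773-46715821, minus strand), Pilra (chr5:137836428-137836476, minus strand) and Gbp2 (chr3:142620585-142620633, plus strand).
Saa3: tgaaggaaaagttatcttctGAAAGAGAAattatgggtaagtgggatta
Pilra: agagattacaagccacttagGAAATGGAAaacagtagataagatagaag
Gbp2: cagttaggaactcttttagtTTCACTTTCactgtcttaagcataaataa
The kappaB letters are shown for Saa3 (chr7:46715835-46715883, minus strand), Marco (chr1:120505025-120505073, minus strand) and Cp (chr3:19957083-19957131, plus strand).
Saa3: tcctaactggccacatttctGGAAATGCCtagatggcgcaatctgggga
Marco: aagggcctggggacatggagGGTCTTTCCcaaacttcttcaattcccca
Cp: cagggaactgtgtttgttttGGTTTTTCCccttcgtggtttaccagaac
The C/EBP letters are shown for Lcn2 (chr2:32387928-32387975, minus strand), Saa3 (chr7:46715748-46715795, minus strand) and Slpi (chr2:164356721-164356757, minus strand).
Lcn2: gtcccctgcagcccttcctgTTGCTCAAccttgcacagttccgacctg
Saa3: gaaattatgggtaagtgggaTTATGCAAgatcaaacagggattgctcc
Slpi: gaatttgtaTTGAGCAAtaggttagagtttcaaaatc
The window of Saa3 thus held letters of all 3 kinds, at places that did not overlap.

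Transcripts of the receptor complex for LPS were at close to their untreated level, and protein was not measured. Tlr4 gave 728.5, 960.0 and 894.7 in untreated cells and 729.2, 718.6 and 753.5 in pretreated cells, a log2 change of -0.22 (95% interval -0.78 to 0.35). Cd14 changed by -0.18 (-0.57 to 0.21), the co-receptor Ly96 by 0.30 (-0.13 to 0.74) and the adaptor Myd88 by 0.36 (0.10 to 0.61), none of them called, and none of these intervals reached a 2-fold change. Tlr2, the receptor for bacterial lipoproteins, fell by 1.04 on the log2 scale (SE 0.18, adjusted p = 0.0324), from 2745, 4068 and 3296 to 1275, 1492 and 2175. It was the 1 called member of 24 pattern recognition receptors and adaptors and lost its call without any one array of the untreated, pretreated or LPS once groups (adjusted p up to 0.132, change -1.19 to -0.83).

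Feedback inhibitors of Toll-like receptor signalling were more often lower than higher in the rested cells. Of 28 measured, 4 fell and 0 rose, against 0.533% and 0.55% of all genes tested, and the median was -0.37. At an unadjusted p under 0.05, 10 were lower and 2 higher, against 7.64% and 6.72% of all genes tested. Dusp1, a phosphatase that shuts off MAP kinases, went from 2698, 1813 and 1606 to 561.9, 809.9 and 641.1, a log2 change of -1.56 ± 0.18 (adjusted p = 0.00678). Zfp36, which speeds the decay of Tnf mRNA, went from 3468, 2960 and 2989 to 1347, 891.7 and 1234, a change of -1.44 ± 0.19 (adjusted p = 0.0121). Nfkbie, an inhibitor of NF-kappaB, changed by -2.16 ± 0.39 (adjusted p = 0.0394). All 3 had groups that did not overlap. Trem2, described above, was the other call.

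Zfp36 lost its call without any one untreated array, pretreated B or pretreated C (adjusted p up to 0.0664). Nfkbie lost its call without any one array but pretreated A and restimulated C (up to 0.14, change -2.49 to -1.56). The list held 2 calls without untreated B and 1 without untreated A, untreated C, pretreated B or pretreated C. Irak3, an inhibitory kinase relative long linked to tolerance, was among the few that pointed up, with 706.4, 915.9 and 678.6 against 1157, 2238 and 1927. Its change of 1.15 ± 0.23 missed the threshold (adjusted p = 0.0505). Tnfaip3, which removes ubiquitin chains from signalling proteins, changed by -0.98 (95% interval -1.88 to -0.08) and was not called. Of 14 NF-kappaB subunits and inhibitors 1 fell, Nfkbie, and 1 of 14 had a change above 0, with a median of -0.32.

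Aoah, the enzyme that removes acyl chains from LPS and so inactivates it, was higher in pretreated cells. It was picked after its values were seen. Its log2 values were 8.84, 9.42 and 9.08 in untreated cells and 11.32, 11.52 and 11.57 in pretreated cells, a change of 2.36 ± 0.12 (adjusted p = 0.000143). The groups were separated by more than the range within either.

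Inflammatory mediators differed from each other in where they stood after the rest. Tnf gave 337.1, 282.6 and 394.2 in untreated cells and 123.5, 265.4 and 178.4 in pretreated cells, a change of -0.83 (95% interval -1.42 to -0.25, adjusted p = 0.176). Il6 was dim in both groups, at 11.50, 11.34 and 14.20 against 13.22, 76.64 and 15.33, where pretreated B alone was high. Il10 changed by -0.32 (-0.72 to 0.07), Il12b by 0.11 (-0.67 to 0.89) and Nos2, the inducible nitric oxide synthase, by -0.02 (-0.40 to 0.36), and none was called. Il6, Il12b and Nos2 were too dim in both groups for a level to be read.

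Some mediators stayed uneven between replicates. Il1b stood at 467.2, 564.2 and 205.5 in untreated cells and at 436.5, 4820 and 2938 in pretreated cells, so that A did not move while B and C were higher, and its change of 2.23 (0.67 to 3.80) was not called. Ptgs2, which makes prostaglandin precursors, changed by -0.28 (-1.93 to 1.37), an interval that leaves more than 2-fold in either direction. Cxcl10, an interferon-induced chemokine, was higher on each pretreated array, at 282.6, 813.3 and 284.9 against 72.75, 112.6 and 48.84, and its change of 2.22 (1.14 to 3.29) missed the threshold (adjusted p = 0.0614). Ccl5, a chemokine for T cells, was the exception, at 256.1, 249.5 and 369.5 against 11494, 11218 and 10339.

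Of 26 chemokines 1 rose and 2 fell, with a median of 0.40. Ccl4, a chemokine of acute activation, fell below its untreated level, from 385.3, 308.4 and 462.4 to 147.2, 191.3 and 160.0, a change of -1.13 ± 0.17 (adjusted p = 0.0206). It lost its call without untreated A, untreated C, pretreated A or pretreated C (adjusted p up to 0.103, change down to -0.97). Cxcl14, a chemokine of resting tissue, changed by -1.93 ± 0.19 (adjusted p = 0.00379). Among 32 measured cytokines and growth factors, 2 were called higher and 3 lower, Igf1 described below among them. Il1rn, the secreted antagonist of the Il1 receptor, rose from 201.0, 339.9 and 110.8 to 1165, 3054 and 867.6, a change of 2.78 ± 0.24 (adjusted p = 0.00208), with all 3 of its probe sets called. Tnfsf13b, a survival factor for B cells, rose by 1.62 ± 0.28 and lost its call without any one array of the compared groups or LPS once C (adjusted p up to 0.139). Vegfa, a growth factor for blood vessels, changed by -1.73 ± 0.19 (adjusted p = 0.00549) and Kitl, the ligand of Kit, by -2.21 ± 0.14 (adjusted p = 0.000411).

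**Figure D3:**
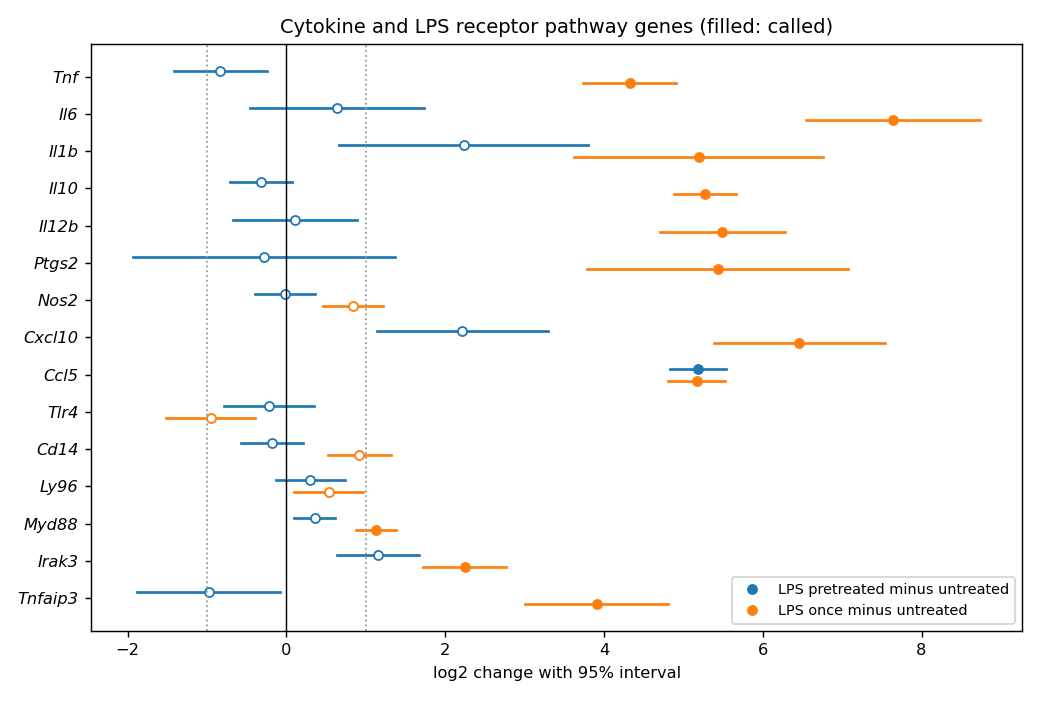
Log2 change with its 95% interval of 15 cytokine and LPS receptor pathway genes, for LPS pretreated minus untreated (blue) and LPS once minus untreated (orange), which share the 3 untreated arrays. Filled points are called, vertical dotted lines mark 2-fold. The blue interval of Tnf runs from -1.42 to -0.25 and that of Ccl5 from 4.83 to 5.54.

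Enzymes of lipid mediators, oxidant defence and tissue remodelling changed in both directions. Ptges, which makes prostaglandin E2, rose from 52.95, 51.51 and 31.76 to 216.9, 1116 and 425.1, a change of 3.01 ± 0.40 (adjusted p = 0.012), and lost its call without untreated B, untreated C or pretreated C (adjusted p up to 0.0704). Pla2g7, which degrades platelet-activating factor, was tightly replicated, at 3091, 2955 and 2940 against 7335, 7192 and 7639 (1.30 ± 0.09, adjusted p = 0.000709). Ltc4s, which makes leukotriene C4, and the epoxide hydrolase Ephx1 changed by -1.17 ± 0.14 and -1.26 ± 0.15, and both lost their calls without untreated C or pretreated C (adjusted p up to 0.0569 and 0.0523). The groups overlapped for Ephx1. Sod2, the mitochondrial superoxide dismutase, rose by 1.51 ± 0.16 (adjusted p = 0.00434) and Ripk3, a kinase of necroptosis, by 1.18 ± 0.13 (adjusted p = 0.00547).

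Of 33 matrix genes, proteases and inhibitors, 3 rose and 1 fell. The gelatinase Mmp9 rose from 96.17, 42.17 and 34.49 to 383.1, 632.4 and 302.6, a change of 2.66 ± 0.32 (adjusted p = 0.00808), and was not called without pretreated C (adjusted p = 0.0557). Mmp14, a membrane collagenase, rose by 1.57 ± 0.17 (adjusted p = 0.00573). The proteoglycan Vcan rose by 2.32 ± 0.35 and the fibronectin gene Fn1 changed by -1.08 ± 0.18, and the groups of both overlapped. Fn1 gave 2076, 2353 and 212.2 in untreated cells and 1384, 915.8 and 76.53 in pretreated cells, low on the C arrays of both groups, as the stromal markers were, whose part in this result was not tested. Vcan lost its call without any one untreated array, pretreated B or pretreated C (adjusted p up to 0.0955), and Fn1 without these, LPS once C or restimulated A (up to 0.131, change -1.33 to -0.90). Vcan was also lost without probe sets that may be shared.

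Energy metabolism showed small shifts. Of 37 respiratory chain subunits 0 were called by limma, 13 were higher and 1 lower at an unadjusted p under 0.05, and 34 had a change above 0, with a median of 0.23. Uqcrq, of complex III, stood at 1830, 1756 and 1776 against 2507, 3504 and 3350, a change of 0.78 ± 0.12 that passed the adjusted p (0.0183) and not the 2-fold minimum. A dimmer probe set without the endings _s_at, _x_at or _a_at gave 0.09 (adjusted p = 0.904). The adjusted p of the brightest probe set missed 0.05 without untreated B, untreated C, pretreated B or pretreated C (up to 0.0955). Of 30 genes of glycolysis and the hypoxia response 12 were higher at an unadjusted p under 0.05, the median was 0.28, and the 1 call was Vegfa, lower. Pgk1, a glycolytic enzyme often used as a reference gene, changed by 0.88 ± 0.09 (adjusted p = 0.00365), under 2-fold. Acod1, which makes itaconate, ranged from 319.1 to 6509 among pretreated arrays against 97.35 to 175.6 in untreated cells and was not called (3.58 ± 0.77, adjusted p = 0.0665).

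Cd83 and Cd207 had the largest decreases of the 97 genes called lower. Cd83, a marker of mature dendritic cells, fell 19.4-fold, from 1040, 793.5 and 960.9 to 27.85, 30.11 and 40.61. Cd207, the C-type lectin langerin, was at 1697, 485.8 and 918.1 in untreated cells and at 104.5, 35.78 and 46.45 in pretreated cells, a log2 change of -3.67 ± 0.17 (adjusted p = 9.67e-05). Each pretreated array lay well below its own untreated partner, although untreated B was much lower than untreated A. Cytip, an adaptor that loosens integrin contacts, changed by -3.13 ± 0.34 (adjusted p = 0.00573) with all 3 of its probe sets called. Of 23 costimulatory and maturation genes, Cd83 fell and Cd274, the inhibitory ligand PD-L1, rose by 1.95 ± 0.33, with the median at 0.06. Cd274 lost its call without any one untreated array, pretreated B, pretreated C, LPS once C or restimulated A (adjusted p up to 0.123).

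Pparg, a nuclear receptor that governs lipid handling and alternative activation, went from 536.5, 420.4 and 633.0 to 85.30, 23.27 and 46.92, a change of -3.10 ± 0.19 (adjusted p = 0.000389). The groups were wide apart. In the list of Pparg targets and fatty acid handling, Pparg itself was the 1 called gene of 23. At an unadjusted p under 0.05, 5 were lower and 2 higher, 4 of 23 had a change above 0, and the median was -0.16. Angptl4, a secreted inhibitor of lipoprotein lipase, gave -1.60 ± 0.33 (adjusted p = 0.0588), or 0.03 on a dimmer probe set without the endings _s_at, _x_at or _a_at. Of 27 genes of liver X receptor targets and cholesterol 0 were called by limma. At an unadjusted p under 0.05, 1 was higher and 3 lower, not far from the shares of all genes, 6.72% and 7.64%. Tle1, a co-repressor of transcription, changed by -2.01 ± 0.14 (adjusted p = 0.000672), and Lsp1, an actin-binding protein of leukocytes picked after its values were seen, by -1.91 ± 0.10 (adjusted p = 0.000143).

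Of 24 measured genes of alternative activation and tissue repair 5 fell and 1 rose. At an unadjusted p under 0.05, 9 were lower and 2 higher, against 7.64% and 6.72% of all genes tested. Of the 24, 8 had a change above 0, and the median was -0.08. The 5 were Tgm2, a protein cross-linking enzyme, at -2.30 ± 0.42 (adjusted p = 0.0412), Vegfa, Myc, the growth factor Igf1 and Fn1. Arg1, which consumes arginine, rose from 20.14, 13.18 and 13.78 to 256.6, 1376 and 227.0, a change of 3.84 ± 0.71 (adjusted p = 0.0424), with pretreated B highest. Arg1 was not called without any one array of the compared groups, LPS once C or restimulated A (adjusted p up to 0.159), and the same 6 arrays of the compared groups ended the calls of Tgm2, which was also lost without LPS once C, and of Igf1 (-1.24), also lost without LPS once B (up to 0.165 and 0.121). The list held 3 lower calls without LPS once B, LPS once C or restimulated A, 2 without pretreated A, and 1 without any one untreated array, pretreated B or pretreated C. Without the replicate block it held 0 calls lower and 0 higher.

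Receptors and bridging molecules for the uptake of dying cells were lower together in size, though few passed the test. Of 22 measured 2 fell and 0 rose, 1 of 22 had a change above 0, and the median was -0.52. At an unadjusted p under 0.05, 11 were lower and 1 higher, against 7.64% and 6.72% of all genes tested. Havcr2, which binds phosphatidylserine, went from 569.8, 328.1 and 406.2 to 103.2, 84.03 and 75.62, a change of -2.09 ± 0.24 (adjusted p = 0.00696). Axl, a receptor kinase bridged to dying cells by Gas6, changed by -1.97 ± 0.38 (adjusted p = 0.0487). Havcr2 lost its call without untreated C or pretreated C (adjusted p up to 0.0519), and Axl without any one array but restimulated A and C (up to 0.17). Axl was also lost without probe sets that may be shared. The list held 4 calls without restimulated C, 0 without untreated C or pretreated C, and 1 without untreated A, untreated B, pretreated A, pretreated B, LPS once B, LPS once C or restimulated B.

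Lineage factors and surface genes of macrophages moved in both directions, with 4 of 26 higher and 6 lower at an unadjusted p under 0.05 and a median of -0.13. Itgam, the complement receptor chain CD11b, stood at 3174, 2973 and 2749 against 6007, 5682 and 5602, a change of 0.96 ± 0.11 that passed the adjusted p (0.0065) and not the 2-fold minimum. Of the 26, 1 was called, Id2, lower, an inhibitor of helix-loop-helix factors, at -1.29 ± 0.15, which was not called without untreated C (adjusted p = 0.0505) and had 2 of 3 probe sets called. Id2 was also lost without probe sets that may be shared. Without restimulated C, 4 of the 26 were called lower, and 2 without LPS once B or without the replicate block. Cx3cr1, the fractalkine receptor, changed by -1.60 ± 0.37 (adjusted p = 0.08) and Il7r, a cytokine receptor chain, by -2.82 ± 0.62 (adjusted p = 0.0706), and both missed the threshold.

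Mitotic and replication genes had medians below 0 and few calls. Ccnd1, the cyclin D1 that M-CSF raises on entry into the cycle, went from 1106, 210.9 and 720.8 to 137.9, 69.01 and 62.20, a change of -2.51 ± 0.37 (adjusted p = 0.0174). Of 38 mitotic genes 4 fell and 0 rose, 3 had a change above 0, and the median was -0.56. At an unadjusted p under 0.05, 27 were lower and 1 higher, against 7.64% and 6.72% of all genes tested. Only 14 of the 38 had a mean of at least 100 intensity units in either group, and the scale understates changes of dim genes. Of 36 genes of DNA replication, 27 of them at such a mean, 2 fell and 0 rose. Here 16 were lower and 0 higher at an unadjusted p under 0.05, 8 had a change above 0, and the median was -0.27. Of 19 cyclins, cell cycle inhibitors and p53 targets Ccnd1 was the 1 called, 9 had a change above 0, and the median was -0.05. The mitotic calls were Cenpa, the histone of the centromere, at -1.61 ± 0.24, Ube2c, of the anaphase-promoting complex, at -1.44 ± 0.27, topoisomerase Top2a at -1.18 ± 0.11 and cyclin A2, Ccna2, at -1.11 ± 0.21.

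Top2a gave 336.5, 287.5 and 148.3 in untreated cells and 112.8, 127.2 and 65.58 in pretreated cells, lower in each pair and with groups that did not overlap. Top2a and Cenpa each gave 0.02 on a dimmer probe set without the endings _s_at, _x_at or _a_at. The replication calls were Rrm2, of ribonucleotide reductase, at -1.67 ± 0.26 and thymidine kinase Tk1 at -1.56 ± 0.22. For Ube2c, Ccna2 and Rrm2 the groups overlapped, as the C arrays were lower in both groups. Ccnd1 and Tk1 lost their calls without untreated A, untreated C or any pretreated array (adjusted p up to 0.0914 and 0.0883), Rrm2 without any array of the compared groups (up to 0.108) and Cenpa without any untreated array (up to 0.0896). Ube2c lost its call without any array but restimulated A and C (up to 0.168), and Ccna2 without any but restimulated C (up to 0.174). Mitotic calls numbered 1 without any one untreated array and 2 without pretreated A, pretreated B, any one LPS once array or restimulated B, and replication calls 1 without untreated B and 0 without any other array of the compared groups. Without the replicate block both lists held 0 calls.

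Cell cycle homology letters, TTTGAA, stood in the promoter windows of 26 of the 62 mitotic and replication genes that had one (41.9%), against 15.7% of all genes, 26.5% of those called lower and 20.3% of those called higher. The letters of an AP-1 site were in 0 of these 62 windows, and those of an interferon-stimulated response element in 3.

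Of 34 measured transcription factors and other genes of the immediate response to stimuli, 2 fell and 0 rose. At an unadjusted p under 0.05, 12 were lower and 2 higher, against 7.64% and 6.72% of all genes tested. Of the 34, 8 had a change above 0, and the median was -0.23. Without the replicate block 0 were called. Egr1, a factor induced by growth signals, went from 550.2, 349.9 and 262.9 to 149.1, 76.78 and 84.71, a change of -1.74 ± 0.29 (adjusted p = 0.0278). Myc, which drives growth, went from 295.1, 155.6 and 144.2 to 63.75, 56.42 and 39.95, a change of -1.58 ± 0.30 (adjusted p = 0.0488). Neither was called without any one array of the compared groups (adjusted p up to 0.122 and 0.185). Myc was also lost without LPS once B, restimulated A or restimulated B and without probe sets that may be shared, and the list held 1 call without restimulated A or B. Ets1, another transcription factor, changed by -2.45 ± 0.41 (adjusted p = 0.0287) with 2 of its 4 probe sets called, and likewise lost its call without any one array of the compared groups or LPS once C (up to 0.126).

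The rested cells were then set beside cells after LPS once, to see where the state after pretreatment differed from that of a recent dose. Pretreated minus LPS once, which uses the same pretreated arrays, had 1658 genes higher (9.11%) and 831 lower (4.57%). The 2 groups differ in when LPS was given and may differ in length of exposure, which cannot be told apart here. Several of the genes raised by pretreatment had changed by less than 2-fold in the LPS once cells when these were sampled. Ly6i, a lymphocyte antigen 6 family protein, stood at 66.31, 102.4 and 85.93 in untreated cells and at 1073, 3024 and 3071 in pretreated cells, a change of 4.44 ± 0.32 (adjusted p = 0.000709), against a change of 0.23 after LPS once. The difference between pretreated and LPS once was 4.22 (adjusted p = 8.75e-05).

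Bst1, a cell surface ectoenzyme that uses NAD, changed by 4.28 after pretreatment and 0.76 after LPS once (difference 3.52, adjusted p = 0.00266), and Arg1 by 3.84 and 0.31 (difference 3.53, adjusted p = 0.00634). Bst1 lost its call against untreated without untreated A, untreated B, pretreated B or pretreated C (adjusted p up to 0.0817). Sirpb1a and Foxred2, an oxidoreductase of the endoplasmic reticulum, fell after LPS once, by 1.81 and 1.80 on the log2 scale, and lay 1.80 and 1.47 above untreated after pretreatment. Their differences between the 2 states were 3.61 (adjusted p = 2.64e-05) and 3.27 (adjusted p = 0.000103). Foxred2 was not called against untreated without any one array of the compared groups or LPS once C (up to 0.159). Aoah changed by 0.42 after LPS once, and its difference was 1.94 (adjusted p = 3.91e-05). Slpi, Cfb and Marco had risen after LPS once by 1.86, 3.76 and 2.53 and stood a further 3.11, 2.91 and 2.44 higher after pretreatment.

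For other raised genes the difference between pretreated and LPS once was not called. It was 0.35 for Saa3 (95% interval 0.07 to 0.63, adjusted p = 0.0607), 0.02 for Ccl5 (-0.34 to 0.37), -0.46 for Fpr2 (-0.97 to 0.05) and -0.49 for Cp (-0.93 to -0.06, adjusted p = 0.0849). Saa3 and Ccl5 were near the highest intensity on any array, 16569, where a difference may be compressed. Another set was above untreated but below LPS once. Gbp2 changed by 3.27 after pretreatment and 4.81 after LPS once, Il1rn by 2.78 and 4.85 and Ptges by 3.01 and 5.51, and all 3 differences were called (adjusted p = 0.00888, 0.000489 and 0.00201).

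Decreases followed several courses too. Ccl4, Noct, Nfkbie, Dusp1, Zfp36 and Cd83 rose after LPS once, by 4.93, 2.52, 2.27, 1.70, 1.28 and 1.21, and lay below untreated after pretreatment, by 1.13 to 4.28 on the log2 scale. Their differences between pretreated and LPS once ran from -6.06 for Ccl4 (adjusted p = 3.2e-06) to -2.72 for Zfp36 (adjusted p = 6.28e-05). Noct, a circadian gene, changed by -2.04 ± 0.36 against untreated (adjusted p = 0.0343) and lost that call without any one array of the compared groups or LPS once C (up to 0.14). Emp1, a membrane protein, Carmil1, a regulator of actin capping, and Tgm2 changed by -0.12, 0.10 and 0.00 after LPS once and by -2.36, -2.20 and -2.30 after pretreatment, with differences of -2.24, -2.30 and -2.29, all called. Emp1 was not called against untreated without untreated A, untreated C or any one pretreated array, and Carmil1 without any one array of the compared groups (adjusted p up to 0.0845 and 0.0737).

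Kitl, Pde3b and St6gal1 were lowered in both states, by 2.45, 2.44 and 2.80 on the log2 scale after LPS once and by 2.21, 2.07 and 2.46 after pretreatment. Pde3b, a phosphodiesterase, lost its call against untreated without any untreated array, pretreated A or pretreated C (adjusted p up to 0.0896), and St6gal1, a sialyltransferase, without any untreated array, pretreated C or LPS once C (up to 0.121). Entpd1, the ATP-degrading ectoenzyme CD39, changed by -1.51 and -2.28, Havcr2 by -1.81 and -2.09, and Sulf2, a sulfatase of heparan sulfate, by -1.38 and -2.23. Entpd1 was not called against untreated without any one untreated array, pretreated C or LPS once C (up to 0.119), and Sulf2 without untreated C or pretreated C (up to 0.0536). Sulf2 gave 0.09 on a dimmer probe set without the endings _s_at, _x_at or _a_at.

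**Figure D4:**
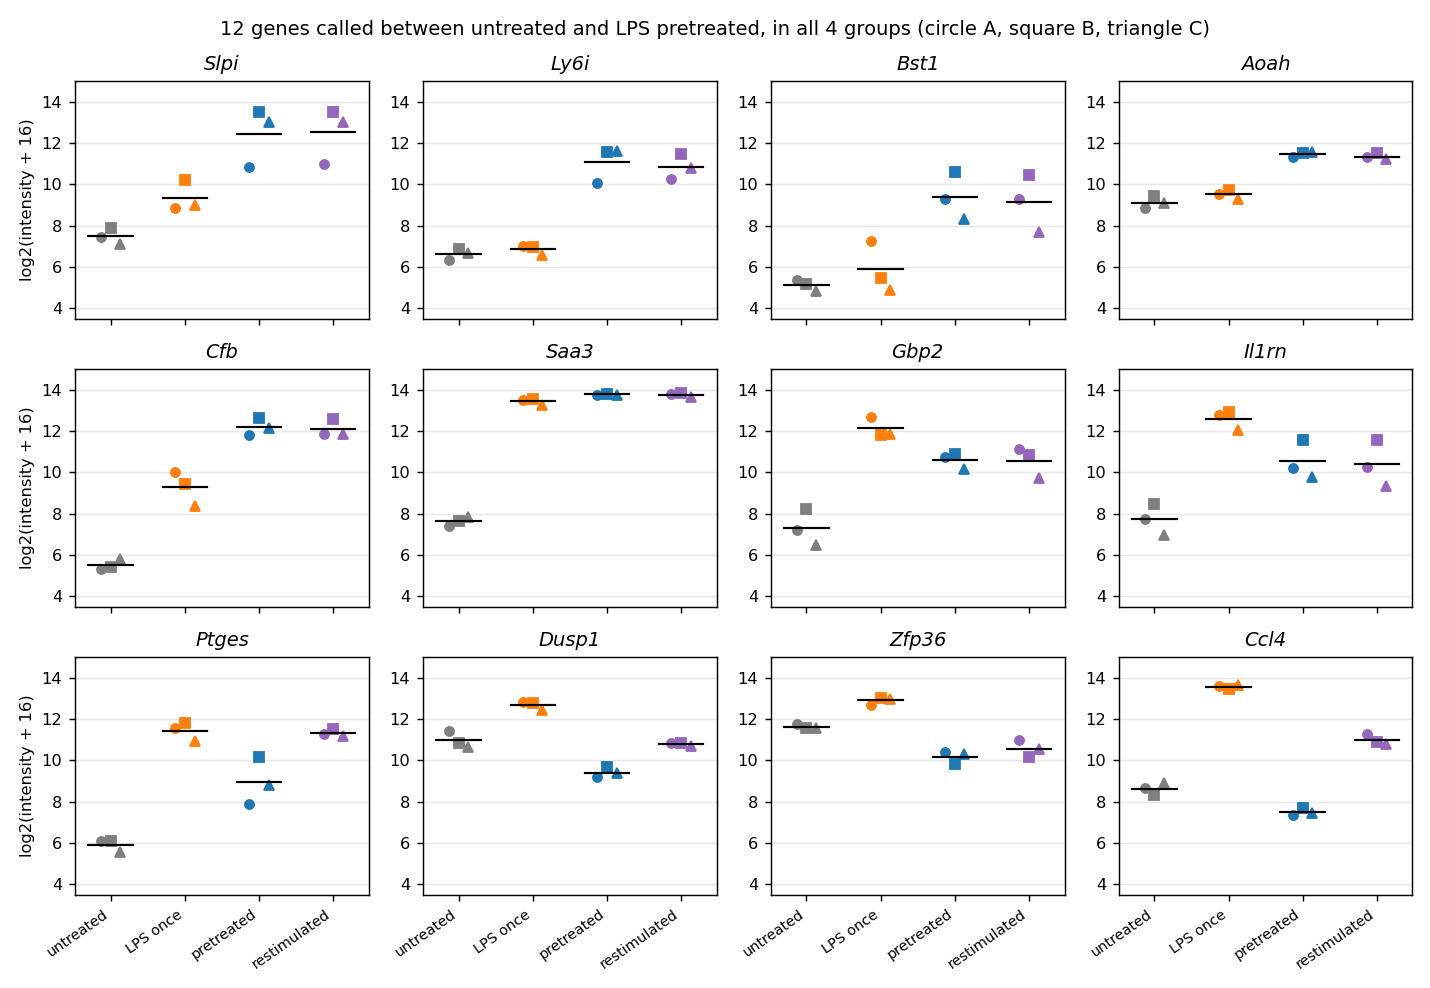
Values of 12 called genes as log2(intensity + 16) on every array of the 4 groups, with black bars at the group means and shapes for the replicate letters. Ly6i, Slpi, Bst1, Aoah and Cfb stand highest in pretreated and restimulated cells, Saa3 stands near its top after LPS once already, Gbp2, Il1rn and Ptges stand between untreated and LPS once in pretreated cells, and Dusp1, Zfp36 and Ccl4 stand below untreated in pretreated cells.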

How the data were processed

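RNA of cultured macrophages was measured on 12 Affymetrix arrays, 1 per culture, and their number limits the precision. The authors deposited an intensity for every probe set on each array, taken as linear from the range of 6.59 to 16569. Their background correction and scaling were not stated in the sources used here. Gene symbols came from the platform annotation, 34945 of 45101 probe sets with 1 symbol, and 34741 were updated by Entrez identifier through RefSeq (GRCm38.p6). Each of 18193 genes was represented by its brightest probe set.

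Intensities were taken as log2(value + 16), which understates changes of dim genes, with no further normalization. Limma 3.58.1 in R 4.3.3 fitted 4 group means with the replicate letter as a block over all 12 arrays (6 residual degrees of freedom), checked on simulated data. Same-letter arrays deviated together: r between untreated and pretreated arrays was 0.364, 0.379 and 0.656 within letters and -0.447 to -0.0366 between letters. Errors are standard errors (SE), and adjusted p-values are limma's with Benjamini-Hochberg adjustment over all genes. In 0 pairs of arrays were most values identical.

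The 50 gene lists hold textbook members and were described by counts and medians, with no set test. The members and lists were chosen with earlier results of these data known. The genes named are the 20 largest increases and decreases among called genes with groups that did not overlap, up to 4 called members of each list or its 2 largest changes, and 5 in each direction against LPS once. A set of 20 cytokine, receptor and tolerance genes was named in any case, and not every gene the rule takes is reported. Aoah, Lsp1, Wfdc21, Trem3 and Igf1 fall outside it. Other names in a list's range are its extreme members. Promoter windows came from RefSeq, 300 bases a start. Alternatives were the block, the samples fitted, array weights, the pseudocount, quantile normalization, the filter on dim genes, the choice of probe set, and leaving out each array or letter.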

Additional observations from a re-analysis of the deposited data

Results flagged for a closer look

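Probe sets with no gene name entered no comparison of the report. Of 9160 such probe sets, 12 were called higher and 11 lower in pretreated cells, and of 932 with several names 13 and 2. The 3 largest increases without a name were 1433741_at at 5.43 (adjusted p = 0.000232), 1450136_at at 4.30 (adjusted p = 0.000899) and 1450808_at at 3.16 (adjusted p = 0.0134), above untreated on each of the 3 pretreated arrays. The 3 largest decreases were 1460003_at at -1.78 (adjusted p = 0.045), 1445025_at at -1.56 (adjusted p = 0.0144) and 1435672_at at -1.55 (adjusted p = 0.0418), below untreated on each. They drew attention as signal outside the genes tested, and groups of 3 arrays were not tested for a single array far from the others.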

How the results depend on the processing

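The numbers of genes called between pretreated and untreated cells, 100 higher and 97 lower, moved with the spread estimate and the pseudocount more than with the scaling. Without the replicate block they were 53 and 56, with array weights 163 and 211, with a pseudocount of 64 they were 62 and 51, and with no fold minimum 164 and 166. The number lower also moved with a pseudocount of 1 (161), a mean intensity of at least 64 (158) and a trended, robust fit (159). Leaving out 1 array or all 4 arrays of 1 letter gave between 21 and 118 higher and between 23 and 156 lower. Quantile normalization gave 135 and 130, and the 6 compared arrays alone 80 and 78. Pretreated minus LPS once, 1658 and 831, gave 3776 and 2065 with no fold minimum and 1581 lower with each probe set alone. Of 88 called genes named by the rule, 34 stayed called whichever of the 12 arrays was dropped and 11 under all 24 settings, and of 60 not called, 23 were called under some setting. In another setting, probe sets ending in _s_at, _x_at or _a_at were left out where the gene had one without these endings. On the dimmer probe sets then used, the changes took the other sign for Sulf2 (0.09), Trem2 (0.22), Fcgr2b (-0.01), Angptl4 (0.03), Cenpa (0.02), Top2a (0.02), Ighm (0.15) and Acta2 (0.07). In the same setting Axl, Id2, Vcan, Myc, Igf1 and Trem3 lost their calls. The cause was not tested. Among genes not called, leaving out arrays or letters turned the sign of Itgax (-0.13 to 1.09), Il12b (-0.04 to 0.26), Ptgs2 (-1.03 to 0.19), Nos2 (-0.21 to 0.10) and Cd14 (-0.37 to 0.04). Signal near background limits Il6, Il12b and Nos2, which stood at 76.64 intensity units or less on all compared arrays.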
